A study of Mus musculus with 10 samples.

Results

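Fluid and bicarbonate secretion genes of the mouse pancreas were examined in mice that express IL-23. The 9 genes, taken by symbol from the 24062 gene rows of each count file, were the aquaporins Aqp1, Aqp5, Aqp8, Aqp11 and Aqp12, the chloride channel gene Cftr, the bicarbonate transporter genes Slc4a4 and Slc26a6, and the carbonic anhydrase gene Car2. All 9 were present, and all 9 had at least 5 counts in every library, the minimum for the test. The study sequenced RNA of whole pancreas from 10 C57BL/6 mice at postnatal day 5, of which 5 were wild type (WT) and 5 KSR23. KSR23 mice (genotype KSR23+) carry the R23 IL-23 cassette, which is silent until a stop signal is cut out, together with Cre recombinase driven by the human keratin 14 promoter, so the cells meant to make IL-23 are keratinocytes and not pancreas cells. The WT mice were littermates, and whether they carried either allele alone was not given in the sources used here.

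The exocrine pancreas has acinar cells, which make digestive enzymes, and ducts, which flush these enzymes out in a fluid rich in bicarbonate. Duct cells load bicarbonate through the basolateral cotransporter of Slc4a4 and through carbonic anhydrase, and release it at the apical side through CFTR and the chloride/bicarbonate exchanger of Slc26a6. Water follows through aquaporins, of which AQP1 is known from duct and vessel cells, AQP5 from ducts, and AQP8 and AQP12 from acinar cells. Secretin is the hormone that turns this duct secretion on.

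Reads counted on genes numbered from 26830235 to 33189132 per WT library and from 16715976 to 57784136 per KSR23 library. Levels are given as CPM, the counts of a gene scaled to a fixed library total after TMM scaling of the library sizes, and 3 counts, the smallest amount taken as measurable, equalled 0.0536 to 0.168 CPM. KSR23 replicate 3 was the smallest library and scored 33.4 on the second principal component of log2 CPM, where the other 4 KSR23 libraries scored from -13.3 to -2.31. The IL-23 subunit genes were checked first, by counts per gene, which do not separate the R23 cassette from the mouse's own genes. Il23a, the p19 subunit gene of IL-23, had 0.0373 to 0.316 CPM in WT and 0.857 to 1.21 CPM in KSR23 mice, a difference with p = 0.00794 in a two-sided exact permutation test, the least that 5 against 5 mice can give. Il12b, the p40 subunit gene, had 0 to 0.240 CPM in WT and 0.0889 to 0.327 CPM in KSR23 mice, and the groups overlapped. Whole pancreas was sequenced, so fewer cells of a type cannot be told apart from less RNA per cell. All 12 acinar marker genes were detected, and their summed level was 248146 to 267207 CPM in WT and 139552 to 175634 CPM in KSR23 mice. For the 9 duct marker genes the sums were 1746 to 1890 CPM in WT and 2819 to 3108 CPM in KSR23 mice. The 6 endothelial markers summed to 186 to 202 CPM and 186 to 211 CPM, and the 7 islet markers to 8113 to 11373 CPM and 4995 to 6296 CPM. Both sums hide opposite changes in the edgeR test described below. Of the endothelial markers, Kdr, Flt1 and Egfl7 rose, Cdh5 and Tek fell, and Pecam1 did not pass. Of the islet markers, 6 fell and Ppy rose.

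The promoters of Aqp12, Aqp8 and Cftr are shown because these were the members whose level differed most between the groups. Each run holds the 250 bases before the RefSeq start site on GRCm38.p6, on the + strand, which is the strand of all 3 genes. Capitals mark letters of the 2 boxes of the PTF1 site, CACCTG and TTTCCC, which are bound by the acinar factor complex of PTF1A and were searched on both strands. In all 3 promoters the match lay on the reverse strand, so it appears as the reverse complement.
Aqp12, chr1:93006084-93006333: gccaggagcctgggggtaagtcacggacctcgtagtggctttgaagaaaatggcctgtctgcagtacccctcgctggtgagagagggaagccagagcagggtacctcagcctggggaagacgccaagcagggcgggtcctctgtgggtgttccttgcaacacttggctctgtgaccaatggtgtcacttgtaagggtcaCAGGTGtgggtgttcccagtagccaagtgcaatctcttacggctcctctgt
Aqp8, chr7:123462044-123462293: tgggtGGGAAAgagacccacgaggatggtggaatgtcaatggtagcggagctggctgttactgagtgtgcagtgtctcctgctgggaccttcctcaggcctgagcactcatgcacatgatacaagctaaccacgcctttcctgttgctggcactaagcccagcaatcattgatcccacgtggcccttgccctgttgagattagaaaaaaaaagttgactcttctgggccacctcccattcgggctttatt
Cftr, chr6:18170437-18170686: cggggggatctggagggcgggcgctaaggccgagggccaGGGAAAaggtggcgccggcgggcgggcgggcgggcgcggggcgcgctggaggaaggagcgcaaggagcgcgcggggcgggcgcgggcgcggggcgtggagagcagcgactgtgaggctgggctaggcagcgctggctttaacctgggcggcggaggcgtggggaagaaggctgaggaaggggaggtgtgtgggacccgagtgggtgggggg
The Aqp12 match was to CACCTG and began 51 bases before the start site. Those of Aqp8 and Cftr were to TTTCCC and began 245 and 211 bases before it. Of 32851 mouse promoters of this length, 17.2% held CACCTG, 21.9% held TTTCCC and 3.61% held both. Among the members with a promoter sequence, which were 8 of the 9 genes without Car2, Aqp1 held both boxes. Slc4a4 has 2 promoters in the RefSeq table, of which 1 held CACCTG and the other neither box, while Aqp5, Aqp11 and Slc26a6 held neither. The palindrome TTCNNNGAA, which STAT factors can bind, was in 7.02% of all promoters and in none of these 8. These matches describe the letters alone.

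Of the 9 genes, 3 fell in KSR23 mice (Aqp12, Aqp8 and Aqp11), 1 rose (Cftr) and 5 did not pass the test (Aqp1, Aqp5, Slc4a4, Slc26a6 and Car2). A gene was called where edgeR's quasi-likelihood F test gave it a p under 0.05 after Benjamini-Hochberg adjustment across the 13882 genes tested, and this value is written below as the edgeR adjusted p. By that rule 31.0% of all genes tested were called, 16.2% higher and 14.8% lower in KSR23 mice, against 44.4% of the 9 members. Among all calls, 52.3% were higher in KSR23 mice, against 72.5% when only the library total was used for scaling. The groups did not overlap in 3 members, all of them lower, while 19.4% of all genes tested did not overlap, 10.7% higher and 8.74% lower. The median log2 fold change (FC, KSR23 over WT) was -0.22 for the 9 members and -0.01 for all genes tested.

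**Figure D1:**
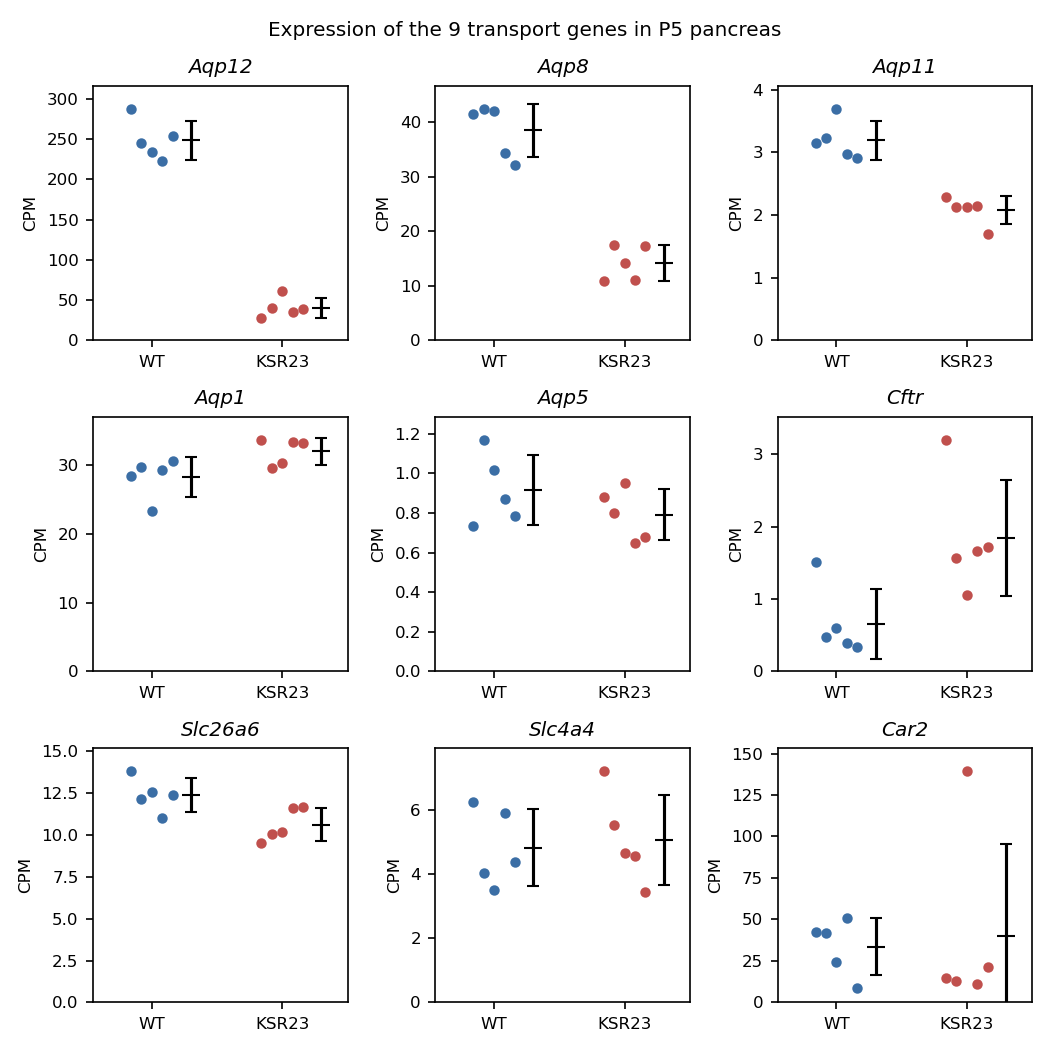
Level of each of the 9 genes in CPM (y axis, from 0) in the 5 WT (blue) and 5 KSR23 (red) mice, 1 point per mouse, with the mean and SD beside each group. Aqp12, Aqp8 and Aqp11 separate the groups, 1 WT mouse stands at 1.51 CPM of Cftr and 1 KSR23 mouse at 139 CPM of Car2, whose SD bar is cut off at 0.

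Aqp12 encodes a water channel that in mouse is known from acinar cells, where it is thought to sit on membranes inside the cell. Its gene lies on chromosome 1 of GRCm38, from 93006334 to 93012269. In WT replicates 1 to 5 it had 287, 246, 235, 223 and 254 CPM, and in KSR23 replicates 1 to 5 it had 27.3, 40.7, 60.8, 34.8 and 39.5 CPM. The highest KSR23 mouse, replicate 3, was well below the lowest WT mouse. Mean levels were 249 ± 24.4 and 40.6 ± 12.5 CPM (SD, n = 5 each), and the WT mean was 6.13 times the KSR23 mean. The log2 FC was -2.63 (95% interval -2.94 to -2.31, edgeR adjusted p = 2.95e-10). These values rested on 6682 to 8201 counts per WT library and 1084 to 2209 per KSR23 library. With KSR23 replicate 3 left out, the log2 FC was -2.80, the largest fall among the alternatives run.

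Aqp8, the other acinar water channel gene (chromosome 7, 123462291 to 123468004), had 41.4, 42.3, 42.0, 34.4 and 32.2 CPM in the WT mice and 10.9, 17.5, 14.2, 11.0 and 17.2 CPM in the KSR23 mice. No KSR23 mouse came near the lowest WT mouse. The means were 38.5 ± 4.83 and 14.2 ± 3.21 CPM (SD, n = 5 each), and the log2 FC was -1.44 (standard error 0.132, 95% interval -1.72 to -1.16, edgeR adjusted p = 1.72e-07). Over 18 alternatives it lay between -1.53 and -1.35.

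The intracellular aquaporin gene Aqp11 (chromosome 7, 97724006 to 97738289, minus strand) had few counts. WT mice had 3.15, 3.23, 3.69, 2.97 and 2.91 CPM, and KSR23 mice had 2.29, 2.13, 2.13, 2.14 and 1.70 CPM. The groups again did not overlap, and KSR23 replicate 5 was the lowest of all. The log2 FC was -0.62 (standard error 0.167, 95% interval -0.97 to -0.27, edgeR adjusted p = 0.00897), from 78 to 105 counts per WT library and 38 to 95 per KSR23 library.

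Aqp1, the water channel of duct and endothelial membranes (chromosome 6, 55336432 to 55348555), did not pass the test. It had 28.4, 29.6, 23.3, 29.2 and 30.5 CPM in the WT mice and 33.6, 29.5, 30.2, 33.2 and 33.2 CPM in the KSR23 mice. The groups overlapped, with WT replicate 3 lowest of all 10 mice. The log2 FC was 0.18 (standard error 0.0819, 95% interval 0.01 to 0.35, edgeR adjusted p = 0.0998) and did not pass the threshold, but it was 0.27 and did pass when only the library total was used for scaling (edgeR adjusted p = 0.0295).

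Aqp5, a water channel known from gland ducts and acini (chromosome 15, 99590782 to 99594829), was near the limit of these libraries, with 17 to 38 counts in each. Its level was 0.736 to 1.17 CPM in WT and 0.647 to 0.951 CPM in KSR23 mice, and the groups overlapped over most of their range. The log2 FC of -0.23 had a 95% interval of -0.76 to 0.30 (edgeR adjusted p = 0.522).

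**Figure D2:**
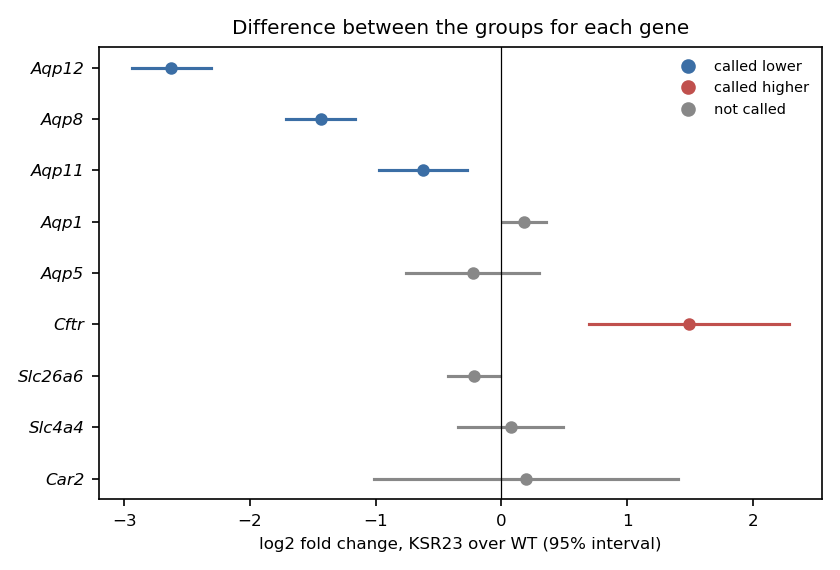
Log2 fold change of each gene (x axis, KSR23 over WT) with its 95% interval from edgeR's quasi-likelihood fit, blue for genes called lower, red for higher and grey for not called. The intervals of Aqp12 (-2.94 to -2.31), Aqp8 and Aqp11 lie below 0 and that of Cftr above, while that of Car2 runs from -1.01 to 1.40.

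Cftr encodes the apical chloride and bicarbonate channel of duct cells (chromosome 6, 18170687 to 18322768). It had 1.51, 0.481, 0.597, 0.387 and 0.335 CPM in the WT mice and 3.20, 1.57, 1.06, 1.67 and 1.71 CPM in the KSR23 mice. WT replicate 1 stood above the other 4 WT mice and above KSR23 replicate 3, so the groups overlapped. Means were 0.662 ± 0.483 and 1.84 ± 0.800 CPM (SD, n = 5 each), with a log2 FC of 1.49 (standard error 0.378, 95% interval 0.70 to 2.29, edgeR adjusted p = 0.00612). The counts were few, 9 to 43 per WT library and 19 to 127 per KSR23 library. Without WT replicate 1 the log2 FC was 2.04, and without KSR23 replicate 1 it was 1.20, and Cftr was called in both fits. Of the exonic bases of Cftr, 1.66% overlap an antisense gene, Gm15592, whose reads could not be told apart if strand was not used in counting.

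Slc26a6, the apical chloride/bicarbonate exchanger that works beside CFTR (chromosome 9, 108853283 to 108913049), had 13.8, 12.1, 12.6, 11.0 and 12.4 CPM in the WT mice. KSR23 mice had 9.51, 10.1, 10.2, 11.6 and 11.7 CPM. The groups overlapped, and the log2 FC of -0.22 did not pass the threshold (standard error 0.0998, 95% interval -0.43 to -0.01, edgeR adjusted p = 0.104).

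Slc4a4, the basolateral sodium-bicarbonate cotransporter of duct and acinar cells (chromosome 5, 88886818 to 89239653), had 6.24, 4.02, 3.51, 5.91 and 4.36 CPM in the WT mice and 7.20, 5.51, 4.64, 4.56 and 3.43 CPM in the KSR23 mice. Both the highest and the lowest value were from KSR23 mice. The log2 FC was 0.07 (95% interval -0.34 to 0.49, edgeR adjusted p = 0.813), and its sign turned with WT replicate 3 (-0.03) or KSR23 replicate 1 (-0.10) left out. The interval contains neither the log2 FC of Aqp8 nor that of Cftr.

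Car2 encodes the cytosolic carbonic anhydrase that supplies bicarbonate in duct cells and is also abundant in red blood cells (chromosome 3, 14886273 to 14900770). It had 42.7, 41.9, 24.1, 50.8 and 8.79 CPM in the WT mice and 14.8, 13.1, 139, 11.2 and 21.3 CPM in the KSR23 mice. KSR23 replicate 3 was the highest of all 10 mice, WT replicate 5 was the lowest, and the other 4 KSR23 mice were below the other 4 WT mice. The log2 FC was 0.19 with a 95% interval of -1.01 to 1.40 (edgeR adjusted p = 0.829). Without KSR23 replicate 3 it was -1.15 and passed the threshold (edgeR adjusted p = 0.00885), and without WT replicate 5 it was -0.06. The call thus turned on KSR23 replicate 3, and the direction on either of these 2 mice.

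Red blood cell genes moved with Car2 from mouse to mouse. The 4 haemoglobin genes were listed at 0 in all 10 libraries. Alas2, the haem synthesis enzyme of erythroid cells, had 46.9, 44.7, 32.5, 56.8 and 20.4 CPM in the WT mice and 19.4, 19.1, 75.9, 26.8 and 34.0 CPM in the KSR23 mice. Slc4a1, the chloride/bicarbonate exchanger of red cell membranes, had 21.3, 19.7, 12.1, 29.6 and 2.98 CPM in the WT mice and 2.89, 2.28, 86.8, 2.51 and 5.79 CPM in the KSR23 mice. KSR23 replicate 3 was the highest for Alas2, for Slc4a1 and for Car2. The erythroid genes Klf1, Kel, Rhd, Epb4.2 and Hemgn, chosen after values had been seen, together had 4.69 to 29.7 CPM in WT and 4.28 to 83.5 CPM in KSR23 mice, and none of the 5 was called. After the log2 CPM of Alas2 was subtracted in each library, the SD of log2 CPM of Car2 over the 10 mice went from 1.22 to 0.608. This difference was -0.41 ± 0.468 in WT and -0.39 ± 0.783 in KSR23 mice (SD, n = 5 each), and the groups overlapped (exact permutation test, two-sided, p = 0.984). With the mean log2 CPM of Alas2 and the 5 added genes subtracted, the SD was 0.309. On that scale Car2 was at 2.66 ± 0.0404 in WT and 3.11 ± 0.291 in KSR23 mice (SD, n = 5 each), a group difference of 0.45, and the groups did not overlap (exact permutation test, two-sided, p = 0.00794). Whether Car2 differed between the groups beside erythroid genes therefore turned on which of these genes were used. The part of red blood cells in the Car2 values was not tested.

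**Figure D3:**
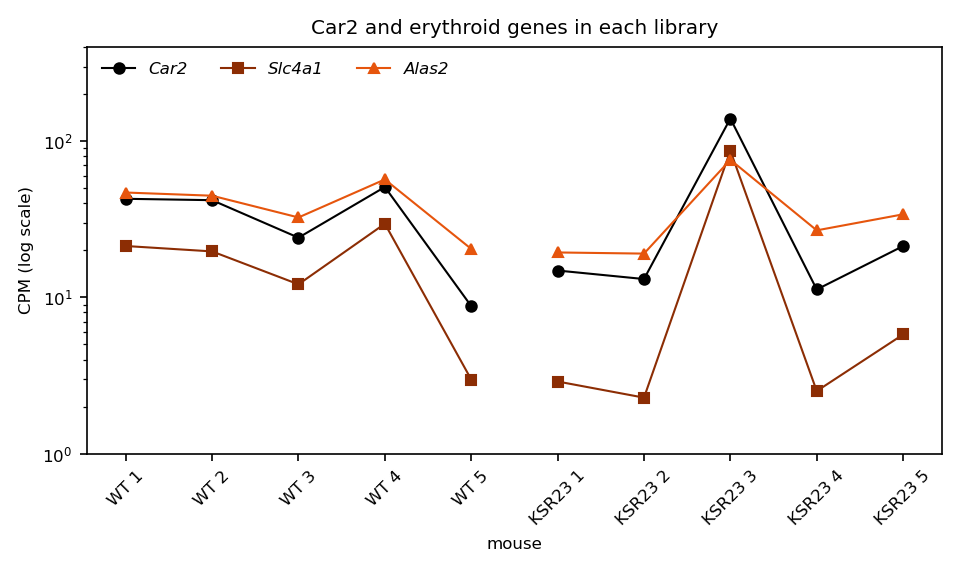
CPM on a log axis of Car2 (black) and the erythroid genes Slc4a1 and Alas2 in each of the 10 mice, in label order with lines that only join the points of 1 gene. All 3 genes are highest in KSR23 replicate 3 (139 CPM of Car2, 86.8 of Slc4a1 and 75.9 of Alas2).

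The spread between mice of a group differed among the 9 genes. The pooled SD of log2 CPM was 1.28 for Car2 and 0.68 for Cftr, above 99.9% and 98.3% of all genes tested, whose median was 0.189. Aqp1 and Slc26a6 were the steadiest members, with 0.127 and 0.124.

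Levels of different genes were compared as CPM per kilobase (kb) of the longest coding transcript. On this scale Aqp12 had the highest mean in both groups, with 229 ± 22.4 CPM per kb in WT and 37.3 ± 11.4 in KSR23 mice (SD, n = 5 each). In the KSR23 mice it overlapped with the gene next in order, Car2, which ranged from 6.28 to 78.0 CPM per kb against 25.1 to 55.9 for Aqp12. Behind it in WT mice came Aqp8 with 25.9, Car2 with 18.8 and Aqp1 with 10.7 CPM per kb, then Slc26a6 with 2.84. Aqp11, Slc4a4 and Aqp5 followed with 0.853, 0.606 and 0.509 CPM per kb, and Cftr was lowest with 0.105. Neighbours in this order whose WT mice overlapped were Aqp8 and Car2, Car2 and Aqp1, Aqp11 and Slc4a4, and Slc4a4 and Aqp5. In KSR23 mice Aqp8, at 9.54 CPM per kb, came below Aqp1 at 12.2, with overlap, and Aqp1 overlapped with Car2. Cftr, at 0.292 CPM per kb, still had the lowest mean in KSR23 mice, and there it overlapped with Aqp5 at 0.441. Slc4a4 and Aqp11 overlapped in KSR23 mice, as did Aqp11 and Aqp5.

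Aqp12 and Aqp8 were also set against the acinar markers of the same library, since 10 of the 12 markers fell (83.3%) and Ctrb1 and Nr5a2 were not called. Log2 FC of the 12 markers ran from -2.53 for Cela1, near the -2.63 of Aqp12, to 0.05 for Nr5a2. The mean log2 CPM of these 12 genes was 0.94 lower in KSR23 mice. Aqp12 was -2.87 ± 0.108 log2 units from this mean in WT and -4.59 ± 0.402 in KSR23 mice (SD, n = 5 each), a difference of -1.72 (two-sided exact permutation test, p = 0.00794, adjusted p = 0.0175 by Benjamini-Hochberg over 11 such comparisons). For Aqp8 the difference was -0.51 (same exact test, adjusted p = 0.0249), and without the acinar transcription factors in the list it was -0.21 (adjusted p = 0.183). Slc4a4 was 1.01 higher relative to the acinar mean (same exact test, adjusted p = 0.0249) and Aqp11 0.34 higher (adjusted p = 0.0546), a value of 0.65 (adjusted p = 0.0125) without the transcription factors. Because the acinar mean itself fell, a gene with steady CPM comes out higher on this scale, and Slc4a4 was not called by edgeR's test. The difference of Aqp12 stayed between -1.88 and -1.41 over the 12 alternatives run, and that of Aqp8 lost its call under 1 of them.

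Of the 9 duct markers, 8 rose (88.9%), and Krt19 was not called (log2 FC -0.05, edgeR adjusted p = 0.663). Whether these genes were confined to duct cells in this tissue was not tested. The mean log2 CPM of the 9 markers was 0.59 higher in KSR23 mice. Relative to this mean, KSR23 mice differed from WT mice by -0.41 log2 units for Aqp1, -0.78 for Aqp5, -0.81 for Slc26a6 and -1.20 for Aqp11, each without overlap between the groups (two-sided exact permutation tests, adjusted p = 0.0175 for each). For Cftr the difference was 0.92 and for Slc4a4 it was -0.52 (same exact tests, adjusted p = 0.0698 for both). Car2 differed by -0.90 (adjusted p = 0.270). Without WT replicate 1 the difference of Cftr was 1.22 (adjusted p = 0.0291). Because the duct marker mean itself rose by 0.59, a gene with steady CPM comes out lower on this scale. Aqp1, Aqp5 and Slc26a6 were not called by edgeR's test. Their differences here therefore cannot be told apart from the rise of the markers. These comparisons set a gene beside the markers and do not show which cells held its RNA.

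**Figure D4:**
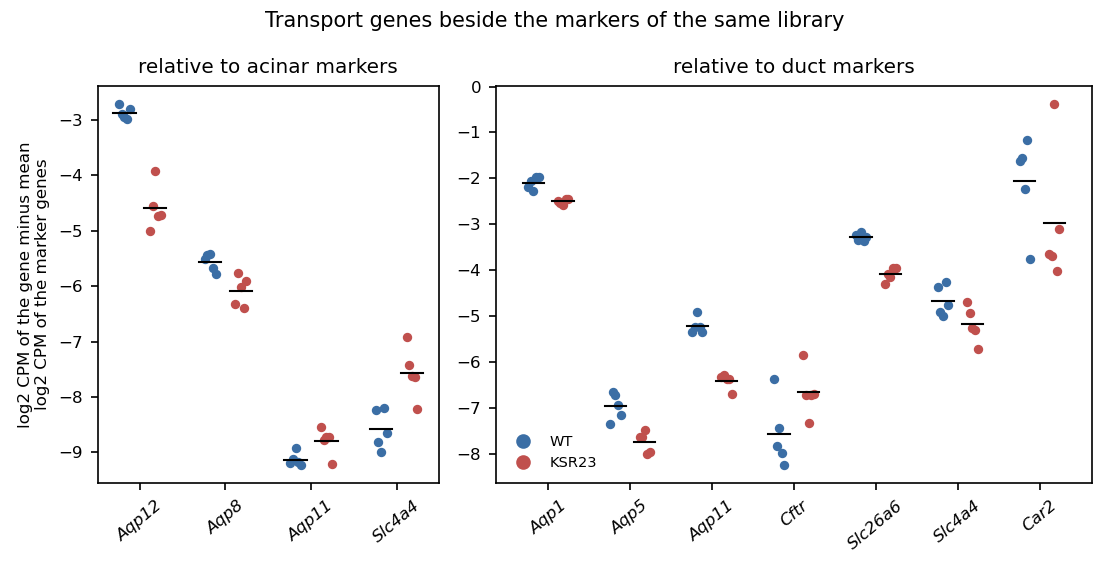
Log2 CPM of each gene minus the mean log2 CPM of 12 acinar (left) or 9 duct (right) marker genes in the same library, 1 point per mouse, WT in blue and KSR23 in red, with group means as lines. Aqp12 differs by -1.72 log2 units in KSR23 mice beside acinar markers, and Aqp1, Aqp5, Aqp11 and Slc26a6 are lower beside duct markers without overlap. The marker means themselves differ by -0.94 (acinar) and 0.59 (duct) in KSR23 mice.

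The genes whose pattern over the 10 mice was most like that of a member with a call and a log2 FC beyond 1 were found by the root mean square difference of log2 CPM, each gene centred on its WT mean, among 12894 genes. For Aqp12 they were the protease genes Ctrl (0.232) and Cela1 (0.315) and the cytochrome P450 gene Cyp4v3 (0.305). For Aqp8 they were Hmgcs1 (0.196) and Msmo1 (0.209), which encode sterol synthesis enzymes, and the phosphodiesterase gene Pde8b (0.200). For Cftr the distances were larger, with 0.415 for F830016B08Rik, 0.428 for the kinase gene Stk32b and 0.464 for the protease gene Tmprss6. The group difference is part of these distances.

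The remaining genes of water and bicarbonate transport were taken from 5 lists with 70 genes, of which 45 passed the filter on low counts. Among those 45, 13 rose, 7 fell and 25 were not called in edgeR's quasi-likelihood test, or 44.4% called against 31.0% of all genes. Their median log2 FC was 0.12. When only the library total was used for scaling, 3 fell, and Slc26a7, Wnk1, Ahcyl1 and Stk39 were not called.

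Of 7 other aquaporin genes, 3 were tested, of which 2 fell and 1, Aqp9, was not called. Aqp4, a water-selective channel best known from astrocytes, had 8.66, 8.45, 8.68, 7.29 and 5.92 CPM in the WT mice and 1.76, 0.978, 0.895, 0.573 and 1.59 CPM in the KSR23 mice. No KSR23 mouse reached the lowest WT mouse, and the log2 FC was -2.71 (standard error 0.234, edgeR adjusted p = 7.76e-08). Aqp7, the glycerol channel of fat cells, had 2.71 to 4.14 CPM in WT and 0.679 to 1.51 CPM in KSR23 mice, also without overlap (log2 FC -1.58, edgeR adjusted p = 2.8e-05). A list of 6 adipocyte genes, chosen after the values were seen, summed to 87.3 to 132 CPM in WT and 29.9 to 59.3 CPM in KSR23 mice. Most of that sum was Fabp4, the 1 gene of the 6 that was tested, which endothelial cells also express and which fell (edgeR adjusted p = 6.09e-07), with 93.4 ± 13.2 and 37.2 ± 9.37 CPM in WT and KSR23 mice (SD, n = 5 each). Adipoq, another of the 6, was highest in WT replicate 3 (8.78 CPM), as was Aqp7 (4.14 CPM). It was at 0 CPM in KSR23 replicate 3, the KSR23 mouse with the most Aqp7 (1.51 CPM). The summed level of the 7 islet markers was also lower in KSR23 mice, at 8113 to 11373 CPM in WT and 4995 to 6296 CPM in KSR23 mice. Of these markers, 6 were called lower and 1, Ppy, was called higher (log2 FC 0.95, edgeR adjusted p = 0.00133). The part of fat cells or of islet cells in the Aqp7 values was not tested. Aqp9, a channel for water and glycerol, was not called (log2 FC 0.96, edgeR adjusted p = 0.075).

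Among 18 other bicarbonate and chloride exchangers and cotransporters, 10 were tested, of which 3 rose, 1 fell and 6 were not called, with a median log2 FC of 0.10. Slc26a9, a chloride transporter of epithelia, had 4.38, 4.05, 3.62, 1.74 and 2.57 CPM in the WT mice and 82.4, 42.0, 31.1, 52.0 and 63.6 CPM in the KSR23 mice. Each KSR23 mouse was far above each WT mouse, and the log2 FC was 4.06 (standard error 0.249, 95% interval 3.54 to 4.58, edgeR adjusted p = 9.11e-10), or 16.7-fold. The anion exchanger gene Slc4a3 rose from 6.11 ± 0.970 to 9.47 ± 2.21 CPM (SD, n = 5 each), a log2 FC of 0.63 (edgeR adjusted p = 0.00679), with overlap. Slc26a11 (log2 FC 0.40, edgeR adjusted p = 0.0478) and Slc26a7 (-1.05, edgeR adjusted p = 0.0351) lost their calls in 10 of 18 and 11 of 17 alternatives, with edgeR adjusted p up to 0.170 without KSR23 replicate 1 for the first and 0.128 without WT replicate 4 for the second. Slc4a2, the anion exchanger of basolateral membranes, had a log2 FC of 0.21 and was not called (edgeR adjusted p = 0.151).

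Of 15 other carbonic anhydrase genes, 8 were tested, of which 2 rose, 1 fell and 5 were not called, with a median log2 FC of 0.13. Car9, a carbonic anhydrase of the cell surface, had 11.1, 15.4, 10.6, 11.3 and 11.8 CPM in the WT mice and 55.8, 39.0, 31.3, 39.1 and 47.5 CPM in the KSR23 mice. The groups were well apart, with a log2 FC of 1.82 (standard error 0.136, edgeR adjusted p = 1.18e-08). Car4, which is anchored outside the cell, had means of 1.45 ± 0.356 (WT) and 2.69 ± 1.15 CPM (KSR23, SD, n = 5 each), with a log2 FC of 0.90 (edgeR adjusted p = 0.0204) and a call lost without WT replicate 3 or 4 or KSR23 replicate 1 or 5 (adjusted p up to 0.0821). Car8, which has the fold of the family but no enzyme activity, fell from 12.4 ± 1.60 to 6.89 ± 0.663 CPM without overlap (log2 FC -0.86, edgeR adjusted p = 1.6e-05). Car3, an enzyme of muscle and fat, had under 5 counts in KSR23 replicate 3 and was left out of the fit. Its level ranged from 19.9 to 117 CPM in WT and from 0.168 to 43.0 CPM in KSR23 mice. With no filter on low counts, Car3 was called lower (log2 FC -2.36, edgeR adjusted p = 0.00913), and so was Car14 (-2.44, adjusted p = 0.00883), while Car6 was called higher (1.73, adjusted p = 0.0302). Car14 and Car6 were near the floor of 3 counts. Car14 had 9 to 25 counts per WT library and 0 to 11 per KSR23 library, and Car6 had 1 to 6 and 5 to 21.

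**Figure D5:**
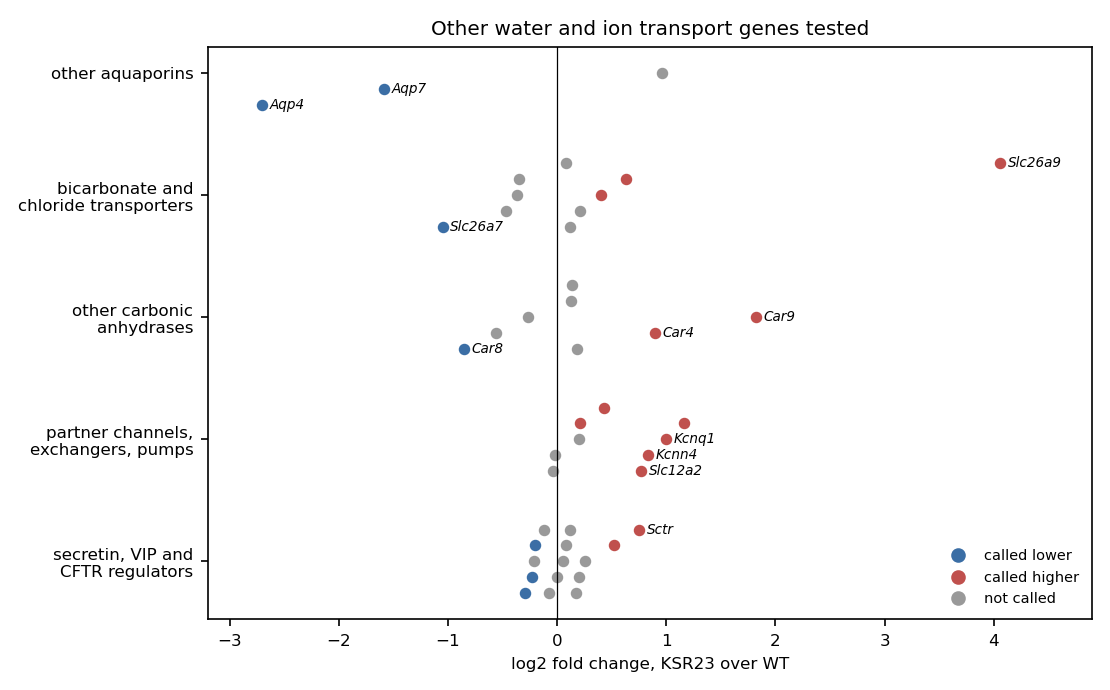
Log2 fold change (x axis, KSR23 over WT) of the 45 other transport genes tested, 1 point per gene and 1 row per list, with genes called lower in blue, higher in red and not called in grey, and the called genes with the larger changes named. Slc26a9 (4.06) and Car9 (1.82) lie farthest to the right and Aqp4 (-2.71) and Aqp7 (-1.58) farthest to the left.

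Of 15 genes for the channels, exchangers and pumps that work with these transporters, 9 were tested, of which 6 rose and 3 were not called, with a median log2 FC of 0.43. Kcnq1, a potassium channel gene, had 26.1, 23.3, 21.6, 21.5 and 25.6 CPM in the WT mice and 52.5, 35.3, 42.8, 52.4 and 51.7 CPM in the KSR23 mice. The lowest KSR23 mouse was above the highest WT mouse (log2 FC 0.99, standard error 0.105, edgeR adjusted p = 9.82e-07). Kcnn4, another potassium channel gene, had a log2 FC of 0.84 (edgeR adjusted p = 4.41e-05), and the groups did not overlap. Slc12a2, the sodium-potassium-chloride cotransporter that loads chloride into secretory cells, rose from 24.1 ± 2.82 to 40.9 ± 10.6 CPM (SD, n = 5 each), with a log2 FC of 0.77 (edgeR adjusted p = 0.000348). Ano1, the calcium-activated chloride channel of acinar cells, had a log2 FC of 0.21 (edgeR adjusted p = 0.0295), with a call lost without WT replicate 1, 2 or 3 or KSR23 replicate 1, 4 or 5 (adjusted p up to 0.0777).

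All 15 genes of secretin and VIP signalling and of CFTR regulation were tested, of which 2 rose, 3 fell and 10 were not called, with a median log2 FC of 0.06. Sctr, the secretin receptor, had 1.16, 1.03, 1.30, 1.71 and 1.83 CPM in the WT mice and 2.37, 2.43, 3.41, 1.87 and 1.95 CPM in the KSR23 mice. The groups did not overlap but nearly touched, with WT replicate 5 just below KSR23 replicate 4 (log2 FC 0.75, standard error 0.232, edgeR adjusted p = 0.0199). Its call was lost without WT replicate 2 (adjusted p = 0.0512) or KSR23 replicate 3 (0.0527). Ezr, which encodes ezrin and links apical membrane proteins to the cytoskeleton, rose from 88.5 ± 7.67 to 127 ± 11.3 CPM (SD, n = 5 each), with a log2 FC of 0.52 (edgeR adjusted p = 4.5e-05). The kinase genes Wnk1 (-0.30) and Stk39 (-0.20) and Ahcyl1 (-0.23), which encodes the regulator IRBIT, were lower by small amounts (edgeR adjusted p = 0.0166, 0.0279 and 0.0155). Stk39 also lost its call without WT replicate 2 or KSR23 replicate 3 (adjusted p = 0.0522 and 0.0829). The scaffold gene Slc9a3r1 was not called (log2 FC 0.08, edgeR adjusted p = 0.479).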

How the data were processed

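Pancreas RNA of 5 WT and 5 KSR23 mice was analyzed, with groups and replicate numbers taken from the sample labels and each library counted as 1 mouse. The labels do not say whether these mice came from separate litters, and p-values measure only the spread between these libraries. No 2 libraries of a group agreed within sampling noise (chi-square per degree of freedom at least 11.8). The authors primed 100 pg of RNA with oligo-dT (SMART-Seq v4), used 15 and 12 cycles of PCR, aligned single-end 75-base reads to mm10 with TopHat2 2.1.0, and deposited raw counts, made with HTSeq 0.6.1p1 from reads with 1 alignment (versions from the submitters' processing notes). No molecular identifiers were named, so count floors cover counting error only. Strand setting and annotation were not given in the sources used here. The 5 tallies of alignments given to no gene were left out, and alignments that were not unique made up 49.6% to 53.7% of all rows in WT libraries and 38.5% to 42.5% in KSR23 libraries. Over the longest coding transcript of each of the 9 genes, 100% of 75-base windows were in no transcript of another gene (GENCODE M21, GRCm38). Only the transcript strand was searched, so antisense overlap such as that of Gm15592 with Cftr is not covered.

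The 13882 genes, of 24062, that reached 5 counts in all libraries were scaled by TMM and compared with edgeR 4.0.16 (R 4.3.3) by its quasi-likelihood F test, with Benjamini-Hochberg adjustment over all genes tested, after the script had been tested on simulated data. Log2 CPM used a prior count of 2. For single values the exact permutation test was two-sided and ran over the 252 ways to split the mice. Alternatives were DESeq2 1.42.0, edgeR's likelihood ratio test, scaling by RLE, by the library total alone or by the total less its 50 highest genes, other filters, the replicate number as a block, other marker lists and a prior count of 0.5, and leaving out each mouse.

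All 9 members were named, with up to 3 called genes with the largest rises and falls per pathway list, regulators and partners fixed by name (not all are reported here), and 3 nearest patterns per member called beyond a log2 FC of 1. Aqp9, Slc4a1, Car3, Car6 and Car14 were named after their values were seen. The members and lists were chosen with earlier results of these data known. Marker lists not described with a result were myeloid (221 to 297 CPM in WT and 269 to 610 CPM in KSR23 mice, with Emr1 for Adgre1), stromal (8000 to 10074 and 7323 to 9538 CPM), lymphoid (5.49 to 7.38 and 2.59 to 5.48 CPM), intestinal (5.63 to 7.79 and 7.39 to 21.0 CPM) and, chosen after seeing the data, skeletal muscle (0.820 to 32.2 and 0.682 to 1.43 CPM). Of the 3 lymphoid markers tested, only Cd3e was called, and it carried most of the lower sum (means of 4.01 CPM in WT and 1.45 CPM in KSR23 mice). Cd3d, near the floor and not tested by edgeR, went the other way (0.110 and 0.447 CPM). Promoter letters were taken from RefSeq on GRCm38.p6.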

Additional observations from a re-analysis of the deposited data

Results flagged for a closer look

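Of 80 groups of 5 values, 9 held 1 mouse far from the other 4 of its group, where chance marks about 1 in 20 groups, or 4. The groups are not independent, since genes such as Car2 and Aqp11 enter both as CPM and beside markers. The 9 and the 4 are therefore not a test of excess. Car2 was at 139 CPM in KSR23 replicate 3, against 11.2 to 21.3 CPM in the other KSR23 mice, and its log2 CPM minus the duct marker mean was -0.38 there, against -4.01 to -3.10. Kcnn4 was at 24.9 CPM in the same mouse, against 15.3 to 16.7 CPM. WT replicate 1 had 1.51 CPM of Cftr, and the rest of its group 0.335 to 0.597 CPM. WT replicate 3 had 23.3 CPM of Aqp1, and its group otherwise 28.4 to 30.5 CPM. Aqp11 was at 1.70 CPM in KSR23 replicate 5, against 2.13 to 2.29 CPM. Its log2 CPM minus the duct marker mean was -6.71 in that mouse, against -6.38 to -6.29, and -4.92 in WT replicate 3, where the group otherwise had -5.35 to -5.24. WT replicate 2 had 15.4 CPM of Car9, and the rest 10.6 to 11.8 CPM. What sets these single mice apart was not tested.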

How the results depend on the processing

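The falls of Aqp12, Aqp8 and Aqp11 and the rise of Cftr kept their direction and their call in all 18 alternatives run for each. When only the library total was used for scaling, Aqp1 was called higher (log2 FC 0.27), so 2 members were called higher, 3 other transport genes were called lower, and the median over all genes was 0.09 in place of -0.01. Leaving out each mouse in turn gave a log2 FC of -1.15 to 0.44 for Car2 and -0.10 to 0.20 for Slc4a4, which were not called with all mice. Relative to marker means, leaving out mice gave 0.27 to 0.44 for Aqp11 beside acinar markers, and 0.71 to 1.22 for Cftr and -0.64 to -0.39 for Slc4a4 beside duct markers, where the call was gained without KSR23 replicate 5, WT replicate 1 and KSR23 replicate 1. With transcription factors left out of the acinar list, the values were -0.21 for Aqp8, which lost its call, and 0.65 for Aqp11, which gained one (adjusted p = 0.0125). Over all alternatives 3497 to 4652 genes were called. No member was too low for the fit, so the separate test of such genes was not run.

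Replicate numbers occur in both groups and name different mice. Deviations of same-numbered mice correlated by -0.11 to 0.07. This gave no sign of pairing by number, but 5 mice per group are too few to exclude it. With the replicate block, Car2 had a log2 FC of -0.42, Slc26a11, Slc26a7 and Stk39 lost their calls, no other named transport gene changed its call, and 3749 genes were called in place of 4299. Aqp5 and Cftr, with 9 to 127 counts per library, are the members with the fewest counts.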
